A study of Mus musculus with 2 samples.

Results

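Among the barcodes of 2 mouse liver single-cell libraries that held at least 1 albumin (Alb) transcript, a small set carried an unusually large share of nuclear RNA. These members were picked from barcodes with 1000 to 9999 unique molecular identifiers (UMIs, each counting 1 captured RNA molecule), at most 30% of UMIs from mitochondrially encoded (mt) genes and at least 1 Alb UMI. The gates were met by 1672 of the 13240 deposited barcodes. These were ranked over both libraries together by the share of their UMIs from the long noncoding RNAs Malat1, Neat1 and Kcnq1ot1, and the 100 highest were taken. The remaining 1572 gated barcodes, 657 from chow and 915 from the NASH diet, served as the comparison within each library and are called the rest. Since the ranking was made on these same counts, the levels of the 3 RNAs in the members are a description of what was chosen.

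Both libraries came from livers of C57BL/6 mice, 1 from mice kept on chow and 1 from mice kept on a diet high in fructose, fat and cholesterol that models non-alcoholic steatohepatitis (NASH), each for 6.5 weeks. Livers were dissociated with collagenase, and cells were recovered from Percoll of 90% and of 25% with spins at 100 g and 1000 g, so that hepatocytes and other liver cells entered together. Libraries were prepared with the 10x Genomics 3' kit, labelled as version 3. Neither the number of mice behind a library nor their age is given in the sources used here. With 1 library per diet, diet and library cannot be told apart, there is no replicate check, and no p-value or standard error is given.

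Malat1 lies at nuclear speckles, the bodies that store splicing factors, Neat1 is the scaffold of paraspeckles, and Kcnq1ot1 is an imprinted transcript that stays at chromatin and silences neighbouring genes. None of them is translated, and in an intact cell they are diluted by the much larger pool of cytoplasmic messenger RNA. Hepatocytes, the main parenchymal cells of the liver, hold a particularly large cytoplasmic pool of messages for secreted proteins and metabolic enzymes, while some of their protein-coding transcripts are held back in the nucleus.

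The 3 ranking RNAs are encoded on the minus strand, Malat1 at chr19:5795690-5802672, Neat1 at chr19:5824708-5845478 and Kcnq1ot1 at chr7:143203458-143296549 (GENCODE M21, GRCm38). In that annotation the first 2 are long intergenic noncoding RNAs and Kcnq1ot1 is an antisense RNA. The transcripts used here had 1 exon each. Libraries of this kind are primed with oligo(dT), which anneals to runs of A, and the longest run of A in each RNA is therefore shown, in capitals, with 25 bases on either side.
Malat1-201: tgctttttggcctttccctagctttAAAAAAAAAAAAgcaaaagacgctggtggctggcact
Neat1-201: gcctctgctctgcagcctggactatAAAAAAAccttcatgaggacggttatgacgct
Kcnq1ot1-201: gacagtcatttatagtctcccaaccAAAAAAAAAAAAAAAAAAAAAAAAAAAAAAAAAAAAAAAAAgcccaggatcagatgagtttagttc
The Malat1 window covers chr19:5795963-5796024 and its run of 12 A ends 298 bases before the annotated 3' end of a transcript of 6983 bases. A run at least as long was found in 4.07% of the 141767 annotated transcripts. The Neat1 window covers chr19:5835909-5835965, and its longest run is 7 A in 20771 bases, a length reached by 22.3% of transcripts. The Kcnq1ot1 window covers chr7:143226920-143227010, and its run of 41 A in 93092 bases is reached by 0.0176%. The longest run of A thus differed between the 3 RNAs. Where these libraries were primed on each RNA was not tested.

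The whole chow library held 71635757 UMIs over 7359 barcodes and the NASH diet library 39440182 over 5881, with medians of 4843 and 2305 UMIs per barcode. The libraries shared 69 barcode sequences. Of these, 1 was a member in either library and 0 in both. Shares are given with exact (Clopper-Pearson) 95% intervals and log2 ratios of summed UMIs with exact conditional ones. All of them cover counting error only and leave out the spread between barcodes.

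Members were unequally divided between the libraries. Chow gave 22 members, 3.24% (95% interval 2.04 to 4.86) of its 679 gated barcodes, and the NASH diet gave 78, 7.85% (6.26 to 9.71) of its 993. The share of the ranking RNAs ran from 12.7% of UMIs at rank 1, with the NASH diet, to 6.72% at rank 25, 4.43% at rank 50 and 2.01% at rank 100. Outside the members, ranks 101 and 102 held 1.99% and 1.96%, so the limit fell in a continuous decline with no gap. The share was 0.615% at rank 200, 0.0805% at rank 400 and 0 at rank 836, the middle of the gated barcodes. With 50 members taken in place of 100, chow gave 7, and with 200 it gave 81, so the division between the libraries depended on where the ranking was stopped.

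**Figure D1:**
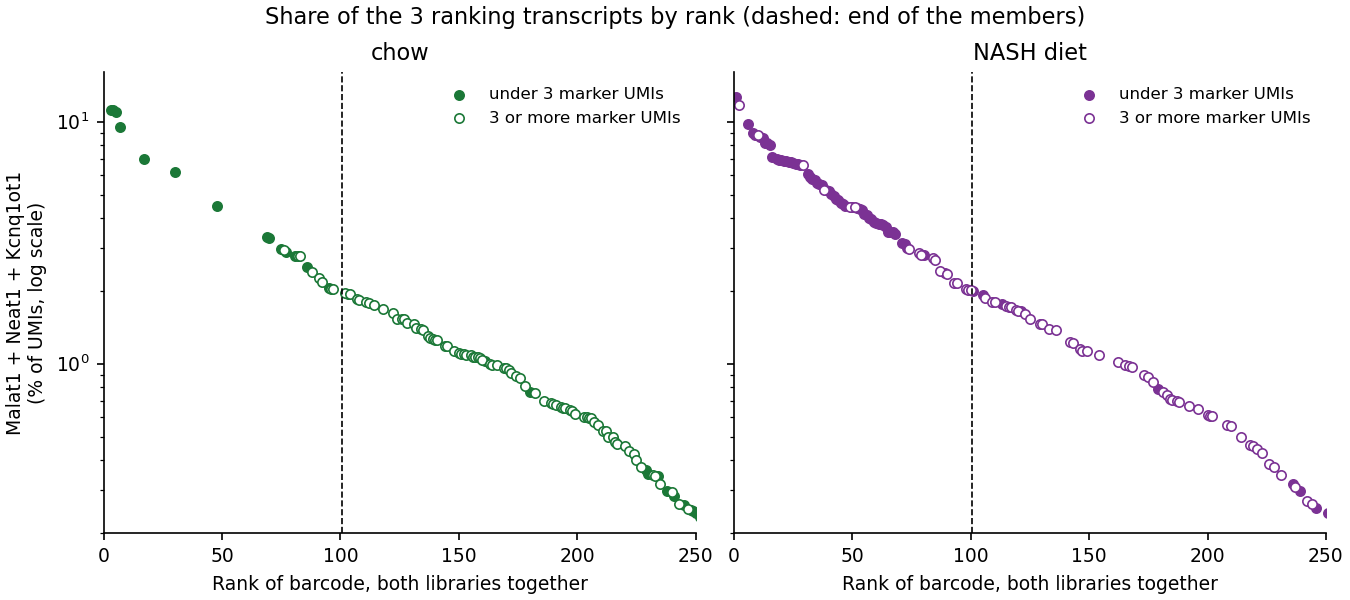
Share of UMIs from Malat1, Neat1 and Kcnq1ot1 (vertical axis, percent, log scale) against rank over both libraries (horizontal axis), 1 point per barcode, chow left and NASH diet right. Filled points had under 3 UMIs of non-parenchymal marker genes and open points 3 or more. The dashed line marks the end of the 100 members, where the share passed from 2.01% to 1.99% and open points prevailed.

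Most members, but not all, held little RNA of other liver cell types. A list of markers of 10 non-parenchymal classes (endothelial, Kupffer, monocyte, dendritic, T and NK, B and plasma, neutrophil, pan-leukocyte, mesenchymal and cholangiocyte) gave at least 3 UMIs in 26 of the 100 members (26%, 17.7 to 35.7). These were 8 of 22 in chow (36.4%) and 18 of 78 with the NASH diet (23.1%), against 14.6% and 11.5% of the rest. They sat low in the ranking: 2 of 25 at ranks 1 to 25, 3 of 25 at ranks 26 to 50, and 21 of 50 at ranks 51 to 100. Just outside the members, at ranks 101 to 200, 92 of 100 barcodes had such RNA, against 4.72% from rank 401 on. The set is therefore described below both whole and without these 26, which leaves 14 chow and 60 NASH diet members, called marker-free.

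Of the 26 members with such RNA, 19 held 65 to 327 marker UMIs each, all at ranks 74 to 100, and 7 held 3 to 6. Some classes came largely from 1 barcode. In chow, 232 of 287 Kupffer marker UMIs (80.8%), which included C1qa, C1qb, Cd5l and Clec4f, lay in 1 member, and 144 of 236 endothelial marker UMIs (61.0%), among them Clec4g, Aqp1 and Ptprb, in 1 member. Spp1 and other cholangiocyte markers gave 165 UMIs in the chow members, 97% of them in 1 barcode. Other classes were spread more widely: 1 barcode held 40.9% of the pan-leukocyte and 35.2% of the dendritic marker UMIs of the chow members, and 33.2% of the endothelial and 23.6% of the pan-leukocyte ones with the NASH diet. In the NASH diet library, 4 of 78 members had at least 3 endothelial marker UMIs, 9 had at least 3 pan-leukocyte UMIs and 4 had at least 3 B and plasma cell UMIs. One NASH diet member held 3263 UMIs of haemoglobin and other erythroid genes, 99.8% of all such UMIs in that library's members. The median member had 1 non-parenchymal marker UMI in either library, and the median barcode of the rest had 0.

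The 9-gene hepatocyte list of Alb, Apoa1, Ttr, Fgb and others gave at least 3 UMIs in every member and also in every barcode of the rest, so that count does not set the members apart. The list took 3.24% of the summed UMIs of the chow members against 3.58% in the rest (log2 ratio -0.14, -0.20 to -0.09), and 2.23% against 3.05% with the NASH diet (-0.45, -0.49 to -0.42), where the median over its genes was 0.03. One chow member gave 30.6% of that library's list UMIs. The median of its share per barcode was 3.07% in chow members and 1.99% in NASH diet members, against 2.89% and 1.97% in the rest. Hepatocyte secreted protein messages made up 15.3% of UMIs in the marker-free chow members and 3.17% in the marker-holding ones, and 6.47% and 4.14% in those of the NASH diet library. A single marker-free barcode gave 27.5% of the secreted protein UMIs of all chow members. Barcodes of the same mt and Alb gates with over 9999 UMIs are called deep barcodes here. There were 1895 in chow and 980 with the NASH diet. They gave 5.92% and 6.65% of their summed UMIs to the 9-gene hepatocyte list, and 19.0% and 15.9% to the secreted protein messages. Alb itself, whose product is the main protein of plasma, took a median of 0.355% and 0.502% of UMIs per member, 0.494% and 0.615% in the rest, and 2.49% and 3.95% in the deep barcodes. The presence of Alb was required by the gate, and how much of it was free RNA was not tested.

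Members held more UMIs than the rest of their library. The medians were 3835 against 2804 in chow and 4435 against 1669 with the NASH diet, and 26407 and 21639 in the deep barcodes. At an equal depth of 1000 UMIs drawn from each barcode, the median member had 568 and 611.5 genes, the rest 512 and 508, and the deep barcodes 461 and 470. Genes per barcode before this thinning had medians of 1645.5 and 1888 in the members and 950 and 737 in the rest. The mt share was 8.49% against 8.0% in chow and 14% against 19.4% with the NASH diet, and 18.5% and 23.6% in the deep barcodes.

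Malat1 made up most of the ranking RNA. Its level was 39665 counts per 1000000 UMIs (CPM) in the chow members (3812 UMIs), 1853 in the rest and 1070 in the deep barcodes, and 44514 (16005 UMIs), 1359 and 1261 with the NASH diet. The median member held 116 Malat1 UMIs in chow and 171 with the NASH diet, and the lowest held 33 and 27, while the median barcode of the rest held 0. Deep barcodes had medians of 21 and 17. Malat1 was most of what the members were ranked on, so these counts describe the choice.

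Neat1 reached 4162 CPM in the chow members against 121 in the rest, and 8547 against 120 with the NASH diet. It gave 0 UMIs in 1 of 22 and 5 of 78 members, and exceeded Malat1 in 1 member of each library. Of the chow members' 400 Neat1 UMIs, 32.0% came from 1 barcode. Kcnq1ot1 reached 531 CPM against 17.4 in chow and 762 against 13.7 with the NASH diet, and gave 0 UMIs in 6 and 18 members. Whether the counting used strand is not stated in the sources used here, so reads of Kcnq1ot1 and of the gene it runs antisense to may not have been separated. Across members, the Malat1 and Neat1 shares had a Pearson r of 0.39 over 22 chow barcodes and 0.10 over 78 NASH diet barcodes (Spearman's rho 0.34 and 0.30), a description of barcodes that share a library and were chosen on these values.

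**Figure D2:**
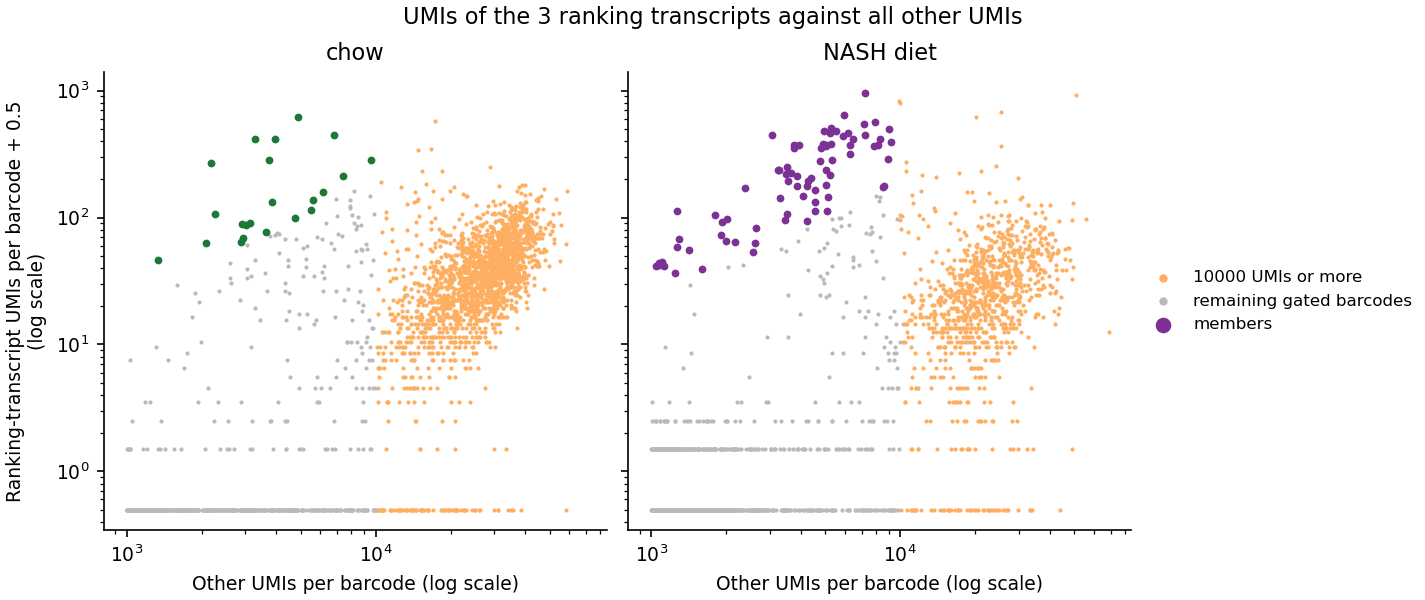
UMIs of the 3 ranking RNAs plus 0.5 (vertical axis, log scale) against all other UMIs (horizontal axis, log scale), 1 point per barcode, for chow (left) and the NASH diet (right). Members had medians of 123 and 208 ranking UMIs, above the 34 and 24 of the deep barcodes, although the deep barcodes held more of all other RNA.

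For all other genes, UMIs were summed over the members and over the rest of a library, and CPM were taken over all UMIs outside the 3 ranking RNAs. A gene was counted as higher or lower past 2-fold when log2((CPM in members + 20)/(CPM in rest + 20)) was at least 1 or at most -1, among genes with a mean of at least 100 CPM over both groups. All log2 ratios of single genes below are on that scale, which understates the change of low genes. In chow, 1391 genes met the level filter, of which 281 (20.2%) were higher in members and 250 (18.0%) lower. In the NASH diet library 1521 genes met it, 539 (35.4%) higher and 448 (29.5%) lower. The median over all filtered genes was -0.11 in chow and 0.11 with the NASH diet. These shares are the background for the list counts below, and since the members were chosen on the same barcodes, none of the counts is a test.

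The calls of the libraries overlapped in part. Of 1151 genes that met the filter in both, 216 (18.8%) were higher in both, 202 (17.5%) lower in both, and 0 past 2-fold in opposite directions. The genes higher in both were 76.9% of those higher in chow and 40.1% of those higher with the NASH diet, and the genes lower in both 80.8% and 45.1% of those lower. Across these genes the ratios of the libraries had a Pearson r of 0.88 and a Spearman's rho of 0.87. Genes are not independent replicates, and the libraries share the protocol, the annotation and the rule that chose their members.

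**Figure D3:**
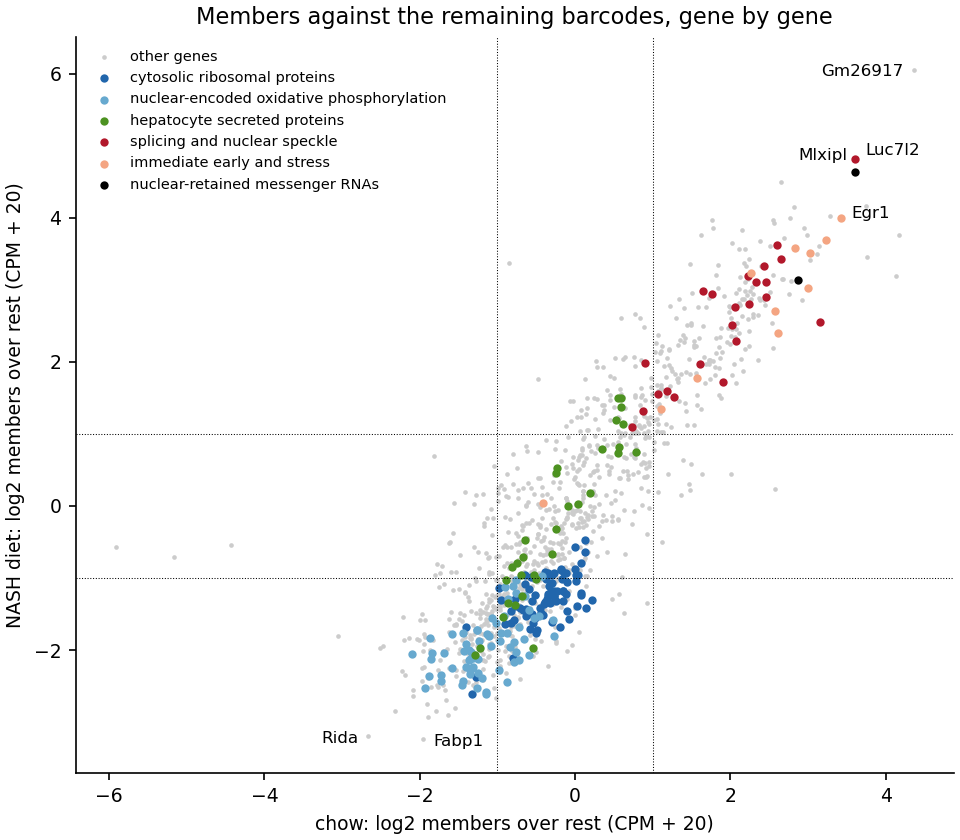
Log2 ratio of members over rest on the CPM + 20 scale in chow (horizontal axis) and the NASH diet library (vertical axis), 1 point per gene for the 1151 genes that met the filter in both. Dotted lines mark 2-fold. Splicing, immediate early and nuclear-retained genes lie at the upper right, oxidative phosphorylation genes at the lower left, and ribosomal protein genes near -0.34 in chow but near -1.25 with the NASH diet.

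Messages for splicing factors and other nuclear speckle proteins were higher in members. They made up 1.04% of the members' UMIs in chow against 0.244% in the rest, a log2 ratio of 2.08 (1.98 to 2.18), and 1.57% against 0.222% with the NASH diet (2.82, 2.76 to 2.87). Of the 31 genes, 24 met the level filter in chow and 26 with the NASH diet, and 21 and 26 of these were past 2-fold higher, with none lower. The list's median ratio was 2.07 and 2.74, against -0.11 and 0.11 over all filtered genes. In the deep barcodes the list stood at 0.208% and 0.206%, close to the rest.

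Luc7l2, which encodes a protein that associates with the U1 small nuclear ribonucleoprotein, had the highest ratios of that list. It stood at 1296 CPM in the chow members against 88.1 in the rest (log2 ratio 3.61) and at 2601 against 72.8 with the NASH diet (4.82). At least 1 Luc7l2 UMI was found in 21 of 22 and 69 of 78 members, against 113 of 657 and 117 of 915 barcodes of the rest. Rsrp1, an arginine and serine rich protein gene, had ratios of 3.15 and 2.56, Rbm25, a regulator of splice site choice, 2.66 and 3.43, and Nktr, a cyclophilin with a serine and arginine rich tail, 2.60 and 3.62. The RNA helicase Ddx5 was below 2-fold in chow, at 0.90, and at 1.99 with the NASH diet.

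Protein-coding messages that have been described as retained in hepatocyte nuclei gave the largest summed ratios of the 19 lists. The list held Mlxipl, which encodes the carbohydrate response factor ChREBP, Nlrp6, an innate immune sensor, and Slc7a2, a cationic amino acid transporter. Their summed share was 0.0871% in the chow members against 0.0107% in the rest (log2 ratio 3.02, 2.64 to 3.39) and 0.200% against 0.0132% with the NASH diet (3.91, 3.72 to 4.11). Mlxipl was found in 14 of 22 and 63 of 78 members, against 46 of 657 and 60 of 915 barcodes of the rest, and no barcode of the rest held more than 3 of its UMIs. Its level was 468 CPM against 19.9 in chow and 1155 against 27.4 with the NASH diet, ratios of 3.61 and 4.63. Deep barcodes stood at 63.1 and 54.2 CPM, also below the members. Nlrp6 had ratios of 2.87 and 3.14, and Slc7a2 0.71 (under the level filter) and 2.14.

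Members with non-parenchymal marker RNA differed from the marker-free ones in these hepatocyte messages. Mlxipl stood at 747 CPM in the 14 marker-free chow members and at 0 in the 8 others, and at 1404 and 427 CPM in the 60 and 18 of the NASH diet library. Luc7l2, which is not particular to hepatocytes, was at 1755 and 525 CPM in chow and 3009 and 1408 with the NASH diet. The marker-holding sets include the 7 members with only 3 to 6 marker UMIs, which were not taken apart in these values.

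Transcripts of chromatin and transcription regulators followed the same direction. Their summed share was 0.220% against 0.0756% in chow (log2 ratio 1.54, 1.32 to 1.75) and 0.394% against 0.0740% with the NASH diet (2.41, 2.31 to 2.51). At ranks 101 to 200, just outside the members, the list stood at 0.234% in chow and 0.261% with the NASH diet. The level of the chow members was thus also reached by the chow barcodes ranked next. Of 24 genes only 4 and 10 met the level filter, and each of these was past 2-fold higher. Ankrd11, a chromatin cofactor, had ratios of 2.0 and 2.60, the histone methyltransferase gene Ash1l 1.58 and 2.76, the corepressor Ncor1 1.06 and 2.02, and the chromatin remodeller Atrx 1.01 (under the filter) and 2.58.

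Hepatocyte transcription factors were mixed. The list's share was 0.406% against 0.219% in chow (log2 ratio 0.89, 0.74 to 1.04) and 0.704% against 0.196% with the NASH diet (1.84, 1.77 to 1.91). Past 2-fold higher were 4 of 10 and 5 of 12 filtered genes and none was lower, where 20.2% and 35.4% of all filtered genes were higher. Nr1i3, which encodes the xenobiotic receptor CAR, stood at 348 CPM against 38.6 in chow and 2704 against 101 with the NASH diet, ratios of 2.65 and 4.50. Nfib reached 1.30 and 2.62. Cebpa, a factor that maintains hepatocyte identity, was at 1.07 and 0.20, and Cebpb at 0.96 and 0.61.

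Immediate early and stress genes, which are short-lived transcripts induced by growth factors and by tissue handling, were also higher in members. They took 0.949% of UMIs against 0.219% in chow (log2 ratio 2.11, 2.01 to 2.22) and 1.04% against 0.190% with the NASH diet (2.45, 2.39 to 2.52). Of the filtered genes, 12 of 13 and 11 of 12 were past 2-fold higher. Egr1 stood at 926 CPM against 67.7 in chow and 1631 against 83.3 with the NASH diet, with ratios of 3.43 and 4.0. Jun had ratios of 3.24 and 3.70, Fos 3.01 and 3.03, and Junb 2.61 and 2.40. In the highest-ranked chow barcodes, at ranks 1 to 25, the list reached 1.84% of UMIs, but that value rests on 5 barcodes.

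Other nuclear RNAs were less uniform. Paraspeckle protein messages had log2 ratios of 0.90 (0.61 to 1.18) and 1.29 (1.14 to 1.44), with Matr3 at 1.86 and 1.54, Sfpq at 0.90 and 1.47, and Hnrnpk at -0.47 and 0.03. Of 21 further long noncoding RNAs looked for, 14 were matched by symbol. Their summed share was 0.0523% against 0.0286% in chow and 0.0688% against 0.0361% with the NASH diet, ratios of 0.87 (0.42 to 1.29) and 0.93 (0.72 to 1.14). Only 0610005C13Rik of that list met the level filter, at -0.20 and 0.33. The intervals for the 3 matched small nucleolar RNA host transcripts included 0 in both libraries, so no difference was detectable at this depth.

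Annotated transcripts of the ribosomal repeat on chromosome 17 did not move together. Gm26917 (17:39843013-39846341, plus strand) was at 1503 CPM in the chow members against 54.0 in the rest, and at 4400 against 46.7 with the NASH diet. Its log2 ratios of 4.36 and 6.05 were the highest among the genes that could be named from both libraries. Gm42418, which begins downstream at 17:39846958-39848788, was at 3615 against 1979 CPM in chow and 7654 against 7608 with the NASH diet, ratios of 0.86 and 0.01. AY036118 (17:39847113-39848035), on the opposite strand to Gm42418 and within it, had ratios of 0.56 and -0.18. Against the deep barcodes, however, all of them were higher, with ratios of 3.80 and 5.40 for Gm26917, 2.57 and 2.44 for Gm42418, and 3.79 and 3.30 for AY036118. Gm42418 and AY036118 overlap, so their separate values are uncertain.

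The remaining genes with the highest ratios in both libraries included the metabolic and secreted products Chka, choline kinase alpha (3.76 and 3.45), and Angptl8, a secreted regulator of lipoprotein lipase (3.28 and 4.03). Clec2d, a C-type lectin gene, was at 2341 CPM against 157 in chow and 2457 against 118 with the NASH diet, ratios of 3.74 and 4.16, and was found in 20 of 22 and 73 of 78 members. Gm47283, annotated as a protein-coding gene on chromosome Y, had ratios of 4.17 and 3.76, and AC160336.1, a long intergenic noncoding RNA gene on chromosome 14, 4.13 and 3.19. The genes named here together with Gm26917, Mlxipl, Luc7l2, Egr1 and Jun are the 10 highest by the smaller of their 2 ratios.

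Messages for cytosolic ribosomal proteins, which are translated in the cytoplasm in every cell type, had lower summed shares in members, but the size and the direction depended on which barcodes were counted. Their share was 5.85% against 7.42% in chow (log2 ratio -0.34, -0.38 to -0.30), with 3 of 79 filtered genes past 2-fold lower where 18.0% of all filtered genes were, and 3.1% against 7.48% with the NASH diet (-1.27, -1.30 to -1.24), with 61 of 79 lower and none higher. The list median was -0.34 and -1.25. Rps27l, with ratios of -1.33 and -2.61, and Rpl36al, with -1.28 and -2.37, were farthest down, and Rps24, with 0.12 and -0.63, and Rps27, with 0.13 and -0.47, were among those nearest 0. The median member gave 3.1% of its UMIs to the list in chow and 1.0% with the NASH diet, against 7.86% and 6.87% in the rest.

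The members with non-parenchymal marker RNA held most of the ribosomal protein UMIs. These messages were 11.7% and 9.28% of their UMIs in the 2 libraries. Marker-free members gave 2.36% and 0.994%, against 7.10% and 6.33% in the marker-free rest, ratios of -1.59 (-1.67 to -1.51) and -2.67 (-2.73 to -2.61). The 14 marker-free chow members ran from 1.33% to 4.88% and the 60 of the NASH diet library from 0.502% to 4.27%. Deep barcodes, which were not filtered on marker UMIs, stood at 4.35% and 4.06%. The marker-free members were also below them, by -0.88 (-0.96 to -0.81) and -2.03 (-2.09 to -1.98). Without marker-holding barcodes on either side, chow had 386 genes past 2-fold higher and 422 lower, and the NASH diet library 598 and 499. The level filter was applied anew there and the number of genes that met it was not recorded. These counts therefore have no share of all filtered genes beside them. The comparison without marker-holding barcodes was chosen after the data had been seen. In chow the ratio was 0.16 (0.14 to 0.18) with 50 members from each library and -0.0083 (-0.036 to 0.019) at an mt limit of 20%. Taking 200 members turned it to 0.33 in chow and 0.28 with the NASH diet, and 92 of those second 100 barcodes held non-parenchymal marker RNA.

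**Figure D4:**
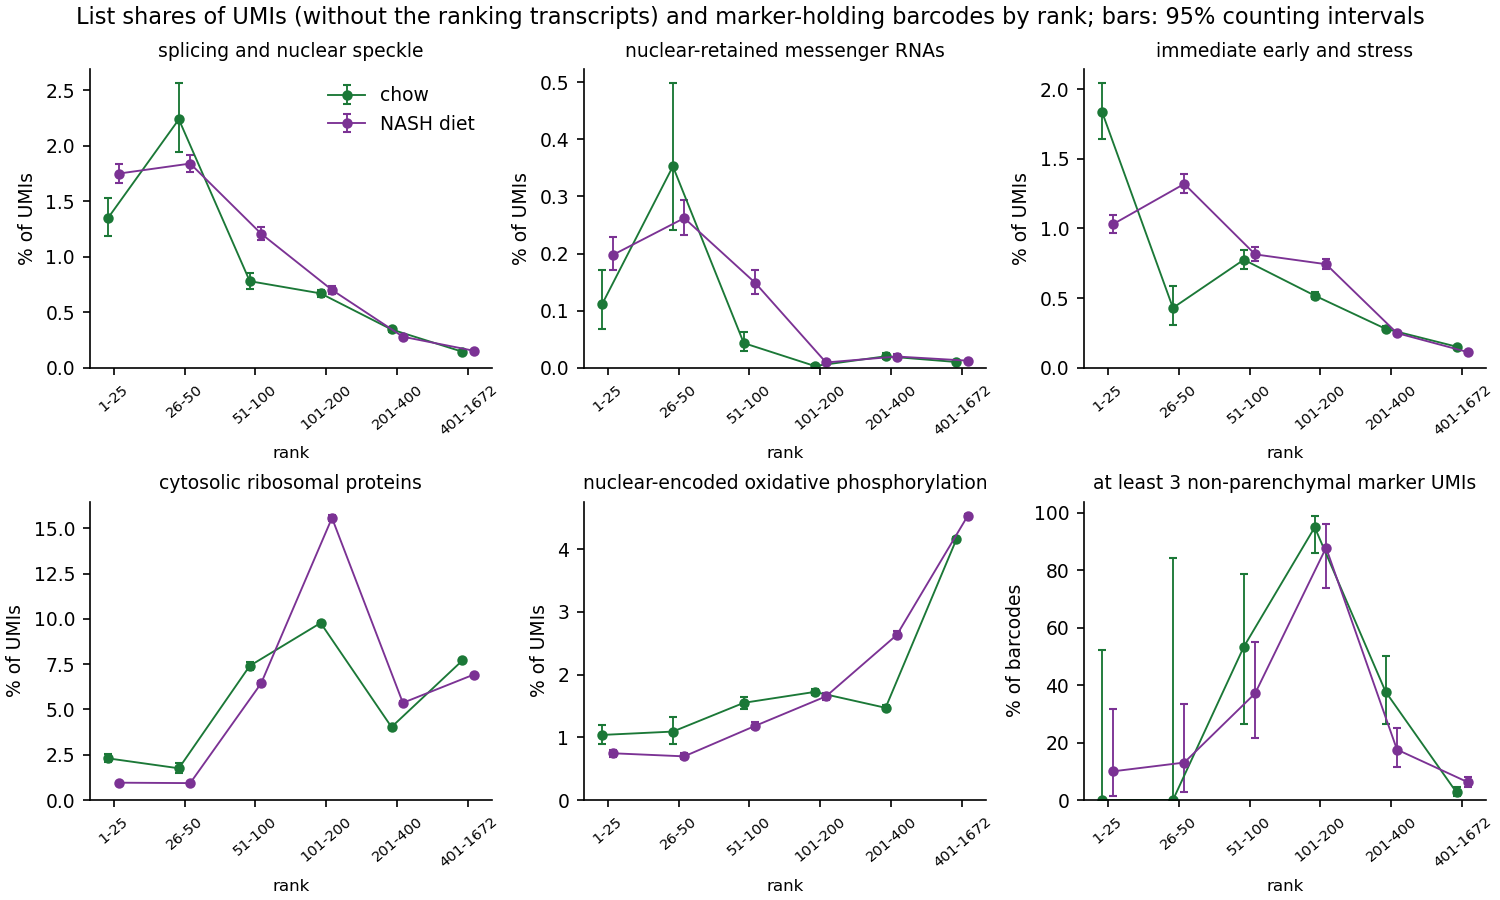
Share of UMIs (vertical axes, percent, ranking RNAs left out) of 5 gene lists, and share of barcodes with at least 3 non-parenchymal marker UMIs, over 6 ranges of rank (horizontal axes) for chow (green) and the NASH diet (purple). Points are sums over the barcodes of a range and bars 95% counting intervals; chow had only 5 and 2 barcodes in the first 2 ranges. Ribosomal protein messages with the NASH diet ran from 0.958% at ranks 1 to 25 to 15.6% at ranks 101 to 200, where marker-holding barcodes also peaked, while nuclear-encoded oxidative phosphorylation messages stayed below 2% over the first 200 ranks in both libraries.

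Nuclear-encoded oxidative phosphorylation messages, whose products join the respiratory complexes, were lower in members with and without those barcodes. They took 1.40% of UMIs against 3.43% in chow (log2 ratio -1.29, -1.37 to -1.21) and 0.901% against 3.99% with the NASH diet (-2.15, -2.20 to -2.09). Of the filtered genes, 41 of 68 and 68 of 69 were past 2-fold lower and none higher, with medians of -1.18 and -1.99. The ATP synthase subunit gene Atp5k had ratios of -2.10 and -2.05, the complex III subunit gene Uqcrq -1.68 and -2.05, the complex IV subunit gene Cox6c -1.37 and -2.14, and Ndufa4 -1.15 and -2.61. Marker-free members stood at 1.15% and 0.788%, against 3.85% and 4.35% in the marker-free rest and 2.03% and 2.43% in deep barcodes, not filtered on marker UMIs. By contrast, the 13 mitochondrially encoded genes, transcribed inside the organelle, had list ratios of 0.02 (-0.01 to 0.05) and -0.19 (-0.20 to -0.18), with medians of -0.02 and -0.17, and none was past 2-fold. Marker-free members were lower than the marker-free rest, at -0.35 (-0.39 to -0.31) and -0.24 (-0.25 to -0.22). They gave 7.99% and 14.1% of UMIs to these genes, marker-holding members 14.9% and 15.5%, and deep barcodes 18.2% and 21.5%. The gate on mt share bears on that list.

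Metabolic enzyme messages of hepatocytes fell on both sides. The list share was 1.51% against 2.79% in chow (log2 ratio -0.88, -0.96 to -0.81) and 1.86% against 4.55% with the NASH diet (-1.29, -1.33 to -1.25). Past 2-fold lower were 10 of 20 and 9 of 20 filtered genes, and 2 and 3 were higher. Over all filtered genes 18.0% and 29.5% were lower and 20.2% and 35.4% higher. Fabp1, the fatty acid binding protein of liver cytosol, was at 2700 CPM against 10558 in chow and 2360 against 22482 with the NASH diet, ratios of -1.96 and -3.24. G6pc, which releases free glucose in the last step of gluconeogenesis, was higher, at 207 against 46.5 CPM in chow and 1264 against 62.0 with the NASH diet (1.77 and 3.97). Pck1, the enzyme of an earlier step, was at 0.89 and 1.24 and Cyp2e1, an ethanol-oxidising cytochrome P450, at 1.10 and 1.29.

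Among the genes lowest in both libraries, Rida, a deaminase of reactive intermediates, was at 120 CPM against 863 in chow and 185 against 1864 with the NASH diet, ratios of -2.66 and -3.20. Its UMIs were found in 8 of 22 and 39 of 78 members, against 462 of 657 and 795 of 915 barcodes of the rest. The glutathione transferase Gstm1 had ratios of -2.32 and -2.84, the esterase Esd -2.19 and -2.35, the peroxide-reducing Prdx1 -2.09 and -2.55, and cytochrome b5, from Cyb5a, -2.09 and -2.64. Ttc36 (-1.97 and -2.25), the urate pathway gene Urah (-1.97 and -2.44) and the transcriptional coactivator gene Edf1 (-1.95 and -2.23) followed. With Fabp1 and Atp5k these are the 10 lowest by the ratio nearer 0.

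Secreted protein messages split by gene. The list share was 10.8% against 13.4% in chow (log2 ratio -0.32, -0.35 to -0.29) and 5.88% against 10.2% with the NASH diet (-0.80, -0.82 to -0.78). As given above, 1 barcode held 27.5% of the list's UMIs in the chow members. None of 32 filtered genes was past 2-fold higher and 2 lower in chow, and 5 of 31 were higher and 9 lower with the NASH diet. Of all filtered genes, 20.2% were higher and 18.0% lower in chow, and 35.4% and 29.5% with the NASH diet. The share of the list past 2-fold lower with the NASH diet was thus close to that of all genes. The apolipoprotein gene Apoc1 was at -1.29 and -2.08 and Apoa2 at -0.86 and -1.35, while Apoe was at 0.04 and 0.02 and Fgb, the fibrinogen beta chain, at 0.55 and 1.5. The major urinary protein genes Mup20 and Mup3 had ratios of -0.54 and -1.98, and -0.68 and -1.25. Their family members have near-identical transcripts and can share reads.

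Long transcripts were higher and short ones lower in members. Among filtered genes with an annotated coding transcript, the median log2 ratio for transcripts of at most 1000 bases was -0.70 in chow and -1.43 with the NASH diet. It was -0.31 and -0.75 for 1001 to 2000 bases, -0.09 and 0.24 for 2001 to 3000, 0.38 and 1.14 for 3001 to 5000, and 1.17 and 1.99 above 5000. Past 2-fold higher were 57.1% and 80.9% of the genes above 5000 bases, against 4.08% and 3.11% of those of at most 1000. Across genes Spearman's rho between length and ratio was 0.47 over 1381 genes in chow and 0.63 over 1509 with the NASH diet. Without ribosomal protein and oxidative phosphorylation genes, most of which have short transcripts, it was 0.44 over 1233 and 0.58 over 1360. Length also went with mean level, with a rho of -0.32 and -0.30, and the part of level in the relation was not tested.

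**Figure D5:**
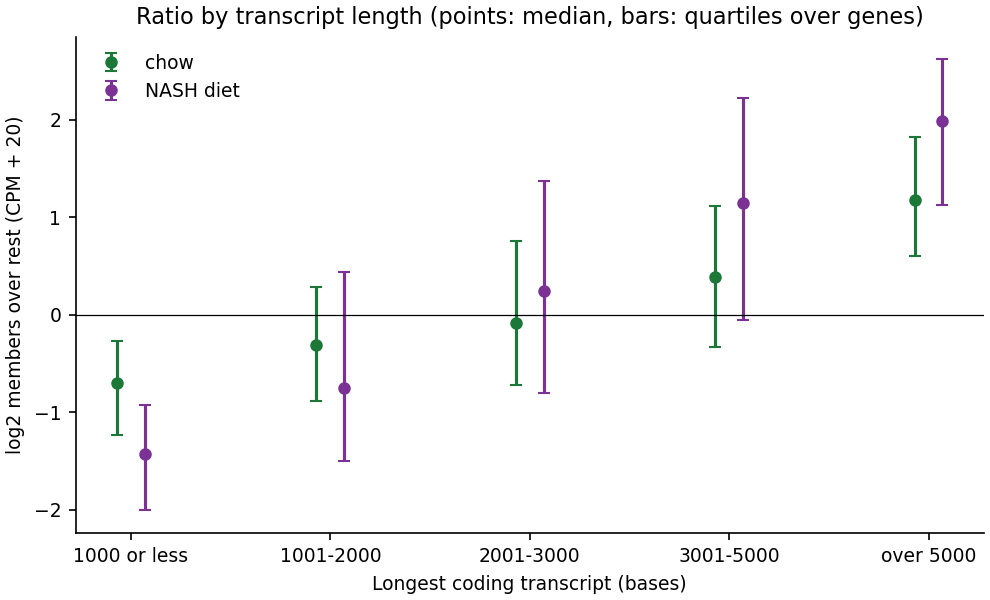
Log2 ratio of members over rest on the CPM + 20 scale (vertical axis) by the length of the longest coding transcript in bases (horizontal axis) for chow (green) and the NASH diet (purple). Points are medians over genes and bars run between the quartiles. Medians climb from -0.70 to 1.17 in chow and from -1.43 to 1.99 with the NASH diet.

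Zonation genes, which mark the position of a hepatocyte between portal and central vein, gave no common direction. The pericentral list had log2 ratios of -0.43 (-0.59 to -0.28) and -0.36 (-0.45 to -0.28), with Cyp2e1 higher as above, Oat at -1.94 and -1.82, Rgn at -1.90 and -2.75, and Glul, the glutamine synthetase gene, at -0.44 and -0.49. The periportal list had 0.31 (0.23 to 0.39) and -0.11 (-0.17 to -0.05), while its median over filtered genes had the other sign, at -0.25 and 0.06, with the urea cycle genes Ass1 at -1.76 and -2.51 and Arg1 at -0.94 and -0.98. In chow, 1 member gave 28.9% of the periportal UMIs. Hpx, a haem-binding plasma protein gene in that list, was at 0.57 and 0.82, and 1 barcode gave 37.0% of its UMIs in the chow members.

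The lists most tied to the diet or to inflammation were compared in the same way. Acute phase messages took 6.32% against 6.67% in chow (log2 ratio -0.08, -0.12 to -0.04) and 0.820% against 0.651% with the NASH diet (0.33, 0.27 to 0.39). The median over its filtered genes was of the other sign, at 0.01 and -0.63. Itih3, a hyaluronan-binding plasma protein gene, was at 2.17 and 3.38 and the copper carrier gene Cp at 1.11 and 2.15, while Saa1 was at -0.08 and -0.93, Saa2 at -0.42 and -1.0 and the iron hormone gene Hamp at -0.08 and -0.63. The cholesterol synthesis list had ratios of -0.01 (-0.19 to 0.16) and 1.15 (0.98 to 1.32), and its median over filtered genes in chow was 0.09. Lipid storage and fatty acid genes had list ratios of -0.40 (-0.60 to -0.21) and -0.37 (-0.43 to -0.31), where the medians over filtered genes were -0.74 and 0.30, with the desaturase gene Scd1 at -1.60 and -1.47 and G0s2, an inhibitor of lipolysis, at 1.05 and 1.21. Of the 29 G0s2 UMIs in the chow members, 48.3% came from 1 barcode.

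Members of the libraries were also compared with each other, and the genes farthest apart included acute phase and lipid-handling genes. Of 1665 genes with a mean of at least 100 CPM over both sets of members, 269 (16.2%) were past 2-fold higher in the NASH diet members and 210 (12.6%) lower, with a median ratio of 0.13. Between the rest of either library, 44 of 1236 (3.56%) were higher and 105 (8.50%) lower. The chow members were only 22 barcodes, and marker-holding barcodes were 36.4% of them, against 23.1% of the NASH diet members. With marker-holding members left out, 281 were higher and 214 lower, under a level filter applied anew, for which the number of genes was not recorded.

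Acaa1b, a peroxisomal thiolase gene, was at 3983 CPM in the NASH diet members and 76.2 in the chow members, a log2 ratio without added counts of 5.71 (4.66 to 7.02). Car3, a carbonic anhydrase gene, was at 3425 and 294 (3.54, 2.99 to 4.15). Ces1d and Cyp4a14, a carboxylesterase and a fatty acid hydroxylase gene, each had 1 UMI in the chow members, with ratios of 6.09 (3.60 to 11.4) and 5.05 (2.55 to 10.4). Rgs16, a regulator of G protein signalling, had 126 UMIs in the NASH diet members and 0 in the chow members, at least 11.3-fold higher against a floor of 3 counts over the chow members. Saa1 stood at 247 CPM in the NASH diet members against 15745 in the chow members (-5.99, -6.33 to -5.68) and Saa2 at 115 against 15712 (-7.10, -7.60 to -6.64). Apcs (-5.70), Lcn2 (-4.99) and Orm2 (-5.98), all acute phase genes, were lower too. Saa1 and Saa2 are near-identical, as are the Orm genes among themselves, and their reads may not have been told apart.

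The differences between the libraries were present in the rest as well for the acute phase and lipid lists. The acute phase list had a NASH diet over chow log2 ratio of -2.94 (-3.01 to -2.88) in members and -3.36 (-3.38 to -3.33) in the rest, and the lipid list 1.52 (1.32 to 1.72) and 1.49 (1.45 to 1.52). Cholesterol synthesis genes were at -1.47 (-1.70 to -1.24) and -2.64 (-2.72 to -2.55). For splicing messages the ratios were 0.60 (0.50 to 0.70) in members and -0.14 (-0.19 to -0.08) in the rest, and for ribosomal protein messages -0.91 (-0.96 to -0.87) and 0.01 (0.00 to 0.02). The differences between members and rest in these ratios have no replicate check.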

How the data were processed

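The values the authors deposited for each library were UMI counts, whole numbers that had not been normalized. Cell Ranger 3.1.0, Seurat and the build mm10 are named per the submitters' processing notes, and per the file headers the matrices were written by software version 3.0.2. Files were read with Python 3.11.15, numpy 2.4.6, scipy 1.17.1 and pandas 2.3.3. A merged matrix served as an alternative. Columns not matched to a sample numbered 0.

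Members and lists were chosen with earlier results of these data known. Counts were summed over barcodes, and CPM took all UMIs outside the 3 ranking RNAs as denominator, except for those RNAs. A pseudocount of 20 CPM and a mean of at least 100 CPM were used for single genes. Named genes were the 3 ranking RNAs, the 10 highest and 10 lowest in members by the ratio nearer 0 of the libraries (with a UMI in at least 5 members of each), the 5 highest and 5 lowest between libraries, and from each of the 19 lists and the marker lists up to 4 genes by UMIs and 2 by ratio. Some genes that this rule names are not reported here. Marker UMIs of 10 non-parenchymal classes were summed, and 3 or more marked a barcode. Scrublet, run in scanpy 1.11.5, called 0 doublets by its own threshold, so doublets were kept, and leaving out the highest scores (0.8% per 1000 barcodes), which marked 0 of 22 and 2 of 78 members, was an alternative. Thinning drew 1000 UMIs per barcode without shallower barcodes, of which the gates left none. Ratios were tested on simulated data. Of 31053 gene IDs, 30934 (99.6%) were found in GENCODE M21 (basic), used for positions, transcript lengths and the printed sequences.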

Additional observations from a re-analysis of the deposited data

Results flagged for a closer look

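In 2 lists the members stood on opposite sides of the rest in the 2 libraries. The periportal list had a log2 ratio of members over rest of 0.31 in chow and -0.11 with the NASH diet, and the acute phase list -0.079 and 0.33. These are ratios of summed UMIs. The medians over filtered genes ran the other way, at -0.25 and 0.06 for the periportal list and 0.01 and -0.63 for the acute phase list, so the directions depend on the summary. With 1 library per diet these differences were not tested. Within the periportal list, Ass1 was lower and Hpx and Pck1 above 0 in both libraries, so the list's sum hides genes that lie apart. In chow, 25.8% of the acute phase UMIs of the members came from 1 barcode.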

How the results depend on the processing

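No paired analysis was possible because each diet has 1 library. Among the counts of members and genes and the ribosomal protein ratios, 96 values under alternatives stayed within 1.5 times or within their counting interval, 41 moved and 3 reversed. The cause was not tested. Of the values for list shares, which include the ribosomal protein ratios, 275 held, 235 moved and 20 reversed. Of those for list medians, 441 held, 66 moved and 1 reversed. Of the values for named genes, 677 held, 123 moved and 0 reversed. The sizes of the list ratios thus depended on the processing more often than their directions. Alternatives with 3000 to 9999 UMIs, without marker-holding barcodes on either side, or without the haemoglobin-rich member were chosen after seeing the data.

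Chow members numbered 7 with 50 taken, 81 with 200, 50 with 50 from each library and 14 without marker-holding barcodes, and marker-holding members 5, 118 and 41 under the first 3 of these. In chow, genes higher numbered 637 with 50 members, 453 with 200 and 1598 with no level filter, and genes lower 386, 384 and 622, or 410 and 422 with marker-holding barcodes left out before ranking or from both sides. In the NASH diet library 2293 were higher and 808 lower with no filter. Between the libraries' members, 595 were higher and 500 lower with 50 from each, 1308 and 869 with no filter, and 332 lower with 50 taken. In these alternatives the level filter was applied anew or dropped, and the number of genes compared was not recorded. The gene counts therefore cannot be read as shares.

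The chow ribosomal protein ratio was -1.81 with 50 members, 0.33 (reversed) with 200, 0.16 (reversed) with 50 from each library, -0.046 ranked on Malat1 alone, -0.0083 at an mt limit of 20%, -0.62 with 10 Alb UMIs, -0.30 in the merged matrix, -1.67 with marker-holding barcodes left out before ranking and -1.59 on both sides, -0.29 without doublet-scored barcodes, -0.41 with ranking RNAs in the denominator and -0.23 at 3000 to 9999 UMIs. For the NASH diet it was -2.97, 0.28 (reversed) and -2.96 with 50, 200 and 50 from each, -0.39 at 20% mt, -0.31 with 10 Alb UMIs, -2.22 and -2.67 without marker-holding barcodes (before ranking, both sides), -1.35 and -1.30 with ranking RNAs in or mt genes out of the denominator, and -1.31 at 3000 to 9999 UMIs. Its list median was 0.28 with 200.

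Other lists reversed in chow for secreted proteins (0.21, markers left out before ranking), pericentral genes (0.058, 50 members), periportal genes (-1.46 with 200, -0.88 with 50 from each), lipid genes (0.25, 50 members) and acute phase genes (0.0063 with 50, 0.037 merged, 0.058 and 0.21 without marker-holding barcodes before ranking and on both sides, 0.022 at 3000 to 9999 UMIs). In the NASH diet library periportal genes reversed (0.15 with 50, 0.13 with 50 from each, 0.014 at 3000 to 9999 UMIs), as did acute phase genes (-0.37 with 200, -0.061 with 10 Alb UMIs) and mt genes (0.12 at 20% mt, 0.0024 at 3000 to 9999 UMIs).

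With 22 chow members summing to 96104 UMIs, the chow ratios of genes under the level filter rest on few UMIs, 11 for Slc7a2 and 12 for Atrx.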
